A study of Homo sapiens with 4 samples.

Results

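The cells described here were those of the 72 h paclitaxel library with under 2% of their unique molecular identifiers (UMIs, each standing for 1 captured RNA molecule) on the 13 mitochondrially encoded protein genes, whose symbols start with MT-. They are called low-MT cells below. They numbered 51 of the 520 cells kept in that library, and the 4 libraries of the study held 3194 cell barcodes in all. The comparison cells were the 469 cells of the same library with 2% to under 20% of UMIs on MT- genes. The cells were chosen by their measured MT- share, so every MT- value below is a description.

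The study used HCC1143, an established human triple-negative breast cancer cell line of basal type, and 10x Genomics Chromium single-cell libraries of polyadenylated RNA. Cells were left to attach to 6-well plates for 24 h and then received either the solvent dimethyl sulfoxide (DMSO) or 1 nM paclitaxel, a drug that stabilises microtubules and disturbs chromosome segregation in mitosis, for 24 h or 72 h. All 4 groups were therefore the same line in the same medium, and each group was 1 library. Cells of 1 library are not replicates of a condition, so no p-values are given, and every interval below is an exact 95% interval that covers counting error only.

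The mitochondrial genome encodes subunits of respiratory complexes I, III and IV and of the ATP synthase, and it is transcribed inside the organelle by the polymerase POLRMT with the factors TFAM and TFB2M. The other subunits, the mitochondrial ribosomal proteins and the import machinery are encoded in the nucleus. MT- transcripts are polyadenylated and are captured with the messenger RNAs of the cytoplasm, and their share of a cell's UMIs is widely used as a quality measure, with high shares taken as a mark of damaged cells. A very low share is less often examined. It can describe cells, nuclei or cell fragments.

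Low-MT cells made up 9.81% of the kept cells after 72 h of paclitaxel (51 of 520, interval 7.39% to 12.7%). In the DMSO library at 72 h they made up 1.40% (11 of 783, 0.703% to 2.50%). At 24 h they made up 0.773% with paclitaxel (6 of 776, 0.284% to 1.68%) and 0.545% with DMSO (6 of 1101, 0.200% to 1.18%). The interval of the 72 h paclitaxel library lay above those of the other 3 libraries. With a limit of 1% the numbers were 25 cells in the 72 h paclitaxel library, 4 with DMSO at 72 h, 0 with paclitaxel at 24 h and 5 with DMSO at 24 h. Requiring 3000 detected genes left 49 of 509 cells after 72 h of paclitaxel, so cells with few genes made up little of the group. No cell barcode of the 72 h paclitaxel library occurred in another library, and the doublet caller Scrublet marked none of its 520 cells.

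**Figure D1:**
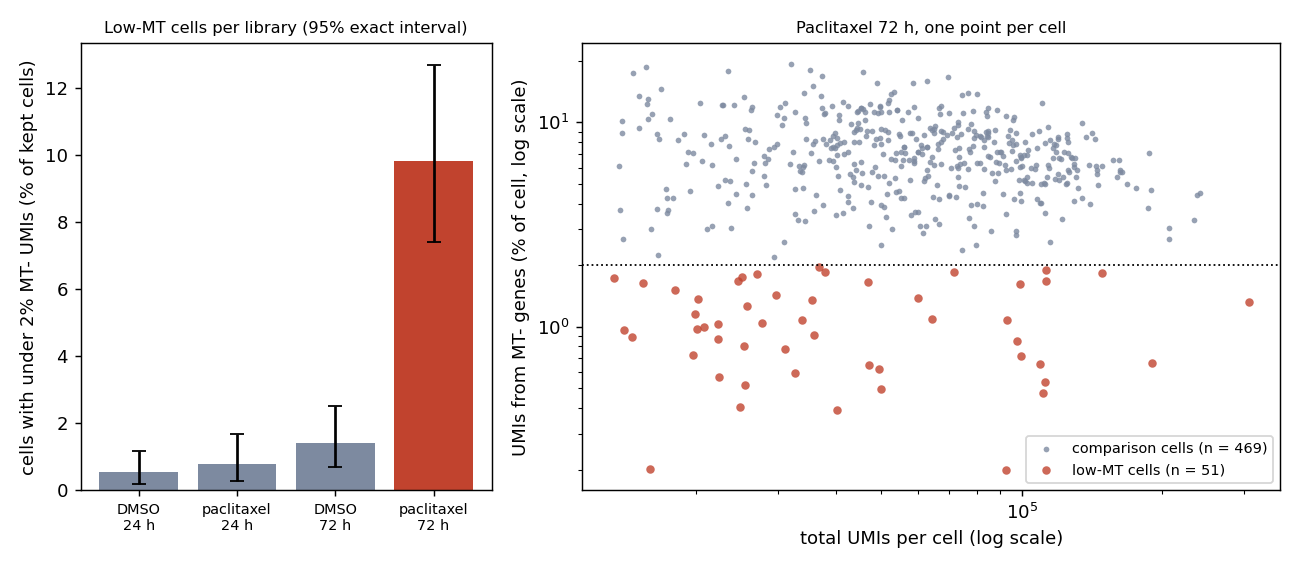
Left, the share of kept cells with under 2% MT- UMIs in each library (bars, with exact 95% binomial intervals). Right, total UMIs (log axis) against the MT- share (log axis) for the 51 low-MT and 469 comparison cells of the 72 h paclitaxel library, with the 2% limit dotted. The low-MT cells spread over the whole range of UMIs, with a median of 33787.

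Low-MT cells carried fewer UMIs than comparison cells, but over a wide range. Their total ran from 13341 to 306725 UMIs with a median of 33787, against a median of 59401 in comparison cells. Of the 51, 23 had under 30000 UMIs (45.1%, 31.1% to 59.7%), compared with 74 of 469 comparison cells (15.8%, 12.6% to 19.4%). Another 8 had over 100000 UMIs (15.7%, 7.02% to 28.6%), compared with 91 of 469 (19.4%, 15.9% to 23.3%), and these intervals overlapped. The group thus held both the cell with the most UMIs and many cells at the low end of the library.

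The cells on either side of the limit did not form a gap. The 5 low-MT cells nearest to it had MT- shares of 1.83% to 1.97% and 36757 to 148389 UMIs, and the 5 comparison cells nearest to it had 2.20% to 2.51% and 16613 to 79696 UMIs. Across the library the cells numbered 25 under 1%, 26 from 1% to 2%, 14 from 2% to 3%, 91 from 3% to 5%, 190 from 5% to 8%, 139 from 8% to 12% and 35 from 12% to 20%. The interval from 2% to 3% thus held fewer cells than the equally wide ones on its lower side.

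A median low-MT cell had 325 MT- UMIs, and a median comparison cell 4372. All 13 MT- genes were lower in the low-MT cells, by 2.20-fold for MT-ATP8 to 9.13-fold for MT-CO2, with a median over the genes of 6.196-fold. MT-CO2, a core subunit of complex IV, took 10.98% of the MT- UMIs in low-MT cells and 15.8% in comparison cells, while MT-CO1, another core subunit of that complex, took 23.6% and 21.1%. The remaining MT- RNA was thus spread over the same genes, with MT-CO2 taking a smaller part.

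At equal depth low-MT cells expressed fewer genes. When each cell was thinned to 13000 UMIs outside the MT- genes, low-MT cells held a median of 3289 detected genes (1908 to 4599), and comparison cells matched to them on total UMIs a median of 3595 (1924 to 4675). Unthinned, the medians were 4995 and 5821. The share of UMIs on cytosolic ribosomal protein genes was alike, with medians of 29.4% in low-MT cells and 29.6% in all comparison cells. Along the whole range of the MT- share, median genes at equal depth were 3289 under 1%, 3234.5 from 1% to 2%, 3387.5 from 2% to 3%, 3433 from 3% to 5%, 3667 from 5% to 8%, 3842 from 8% to 12% and 3867 from 12% to 20%. Median genes per cell were thus higher in each interval above 2% than in the one before it. A rise between the 2% to 3% and the 12% to 20% intervals was also seen in the other libraries. It ran from 3210.5 to 4033 with DMSO and 3495.5 to 3927.5 with paclitaxel at 24 h, and 3106 to 3840.5 with DMSO at 72 h. The 5 cells under 1% with DMSO at 24 h had a median of 3855.

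In most low-MT cells, 1 or more whole chromosomes held a low share of the RNA. For each cell, UMIs of 10092 genes with a single location on chromosomes 1 to 22 or X were summed by chromosome after thinning. Each chromosome's share of the cell's sum was set against the median comparison cell of the library. A share is not an amount, and a rise in the share of 1 chromosome lowers the shares of others. This measure was chosen after the values of single genes on chromosome 11 had been seen, and it reads RNA, not DNA. At least 1 of the 23 chromosomes was under 50% of the median in 37 of 51 low-MT cells (72.5%, 58.3% to 84.1%), and at least 3 chromosomes were in 24 of 51 (47.1%, 32.9% to 61.5%). Among comparison cells the numbers were 210 of 464 (45.3%, 40.7% to 49.9%) and 95 of 464 (20.5%, 16.9% to 24.4%).

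**Figure D2:**
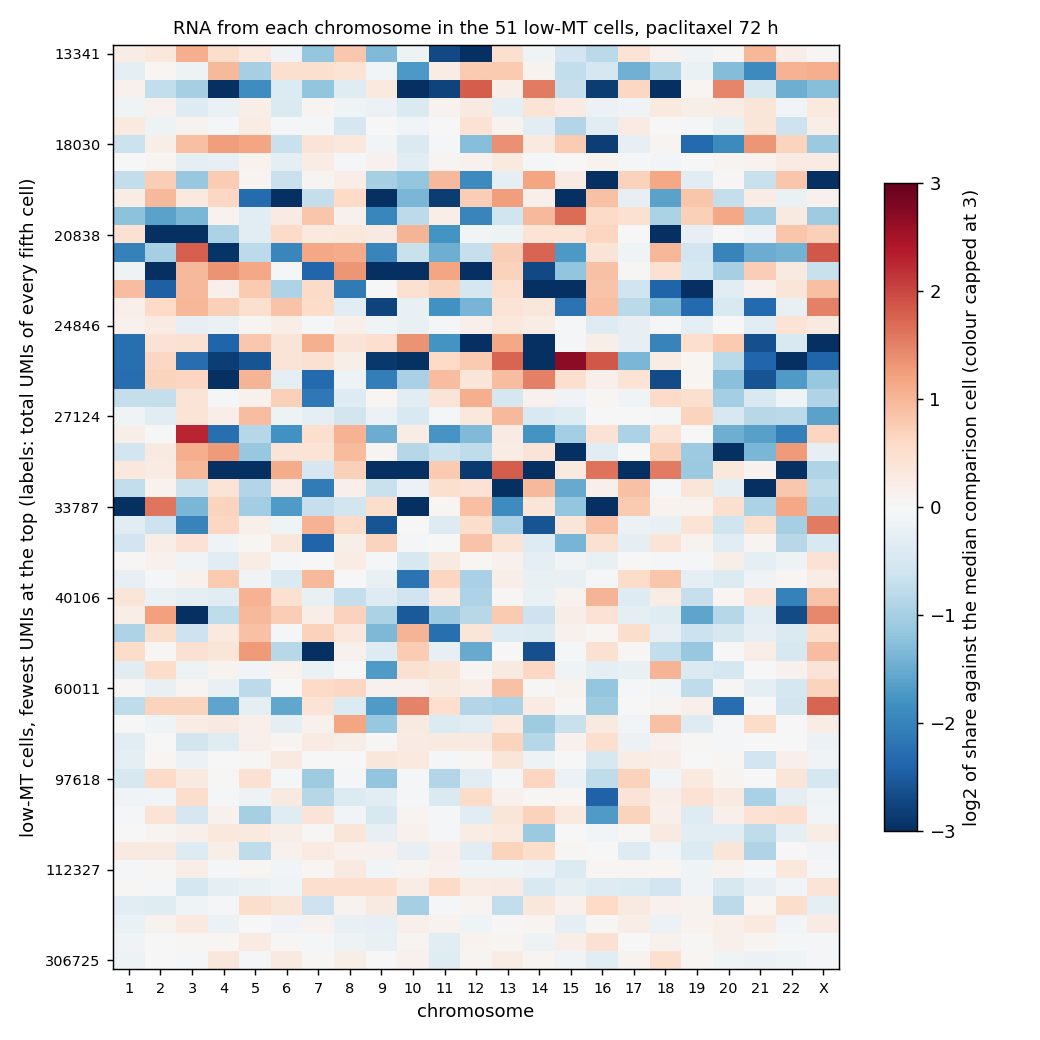
Each row is 1 of the 51 low-MT cells of the 72 h paclitaxel library, ordered from 13341 UMIs at the top to 306725 at the bottom, and each column a chromosome. Colour gives the log2 of that chromosome's share of the cell's UMIs against the median comparison cell (blue lower, red higher). Most upper rows mix deep blue and red chromosomes, the lowest rows are pale throughout, and a few upper rows are pale too.

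Single cells differed in which chromosomes were low. The shallowest low-MT cell, with 13341 UMIs, had 4 chromosomes under 50%, and its chromosome 12 was at 4.48% of the median. A cell with 25380 UMIs had 11 chromosomes under 50%, the most among the low-MT cells, and its chromosome 15 stood at 643% of the median. A cell with 99072 UMIs had chromosome 16 alone under 50%, at 18.7%. Of the 37 low-MT cells with a low chromosome, 35 also had 1 or more chromosomes above 150% of the median, while this held for 3 of the 14 others. Low and high shares within a cell are linked by arithmetic, so this pairing is a description only. No chromosome was spared in every cell: the number of low-MT cells with a given chromosome under 50% ran from 1 of 51 for chromosome 8 and 2 of 51 for chromosome 13 to 16 of 51 for chromosome 9.

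Low chromosomes were rare in comparison cells with DMSO and common in all cells with few UMIs after 72 h of paclitaxel. In comparison cells of the DMSO libraries, 11 of 1095 at 24 h (1.00%, 0.503% to 1.79%) and 12 of 768 at 72 h (1.56%, 0.810% to 2.71%) had a chromosome under 50%, and with paclitaxel at 24 h 73 of 770 did (9.48%, 7.50% to 11.8%). Of the 11 low-MT cells with DMSO at 72 h, 2 had a low chromosome when thinned and 0 did on their full UMIs. At 24 h a low chromosome was found in 1 of 6 low-MT cells with DMSO (interval 0.421% to 64.1%). With paclitaxel at 24 h it was also 1 of 6, and both counts were the same on full UMIs. In the 72 h paclitaxel library, cells below the low-MT median of 33787 UMIs had a low chromosome in 21 of 25 low-MT cells (84.0%, 63.9% to 95.5%) and 72 of 83 comparison cells (86.7%, 77.5% to 93.2%), and these intervals overlapped. At or above that depth the numbers were 16 of 26 (61.5%, 40.6% to 79.8%) and 138 of 381 (36.2%, 31.4% to 41.3%), and these intervals overlapped slightly. With comparison cells matched on UMIs they were 36 of 49 (73.5%, 58.9% to 85.1%) and 107 of 180 (59.4%, 51.9% to 66.7%), again with overlapping intervals.

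**Figure D3:**
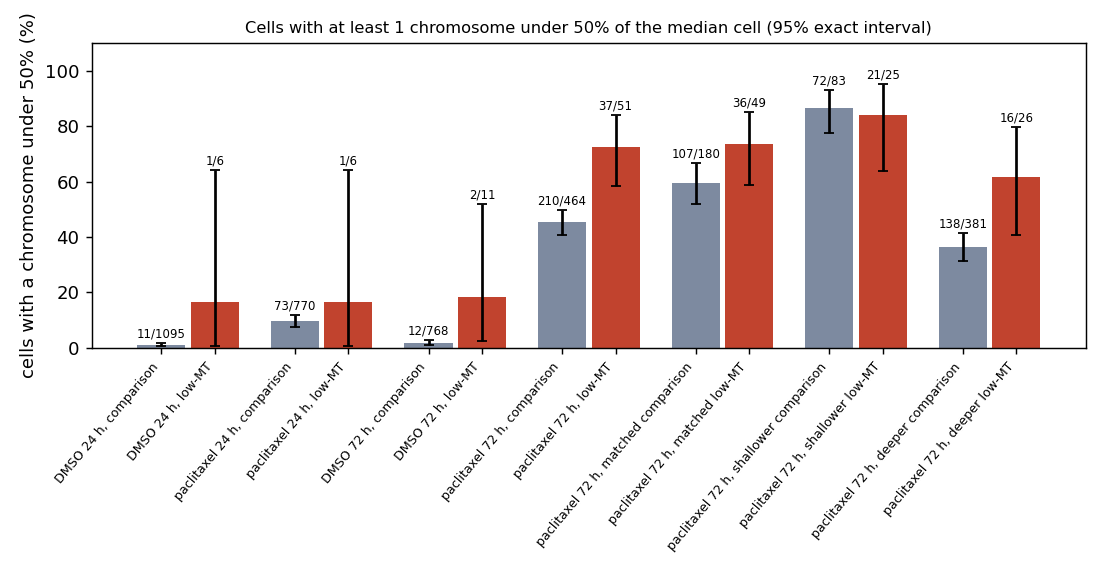
Percentage of cells with at least 1 chromosome under 50% of the median comparison cell of their own library, for comparison cells (grey) and low-MT cells (red), with exact 95% binomial intervals and the counts above each bar. The DMSO comparison cells sit at 1.00% and 1.56%, and the shallower cells of both kinds after 72 h of paclitaxel are the highest, at 84.0% and 86.7%.

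Over all cells of the 72 h paclitaxel library, thinning left these counts unchanged and another reference raised them. On unthinned UMIs 37 of 51 low-MT cells and 210 of 464 comparison cells had a low chromosome. Set against the median DMSO cell at 72 h, the numbers were 39 of 51 and 232 of 464. The 14 low-MT cells with no chromosome under 50% ran from 15439 to 306725 UMIs with a median of 102086, and the other 37 from 13341 to 109617 with a median of 29686.

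The median share of the nuclear RNAs MALAT1 and NEAT1 was lower in low-MT cells. MALAT1 and NEAT1, long noncoding RNAs that stay in the nucleus and lie close together on chromosome 11, made up a median of 0.628% of the UMIs outside MT- genes in low-MT cells and 1.04% in comparison cells. Both RNAs together were under 0.05% in 10 of 51 low-MT cells (19.6%, 9.82% to 33.1%) and in 33 of 469 comparison cells (7.04%, 4.89% to 9.74%). They were above 2% in 6 of 51 (11.8%, 4.44% to 23.9%) and 93 of 469 (19.8%, 16.3% to 23.7%). The cells under 0.05% had a median of 23479.5 UMIs in the low-MT group and 26744 in the 31 thinned comparison cells. Both values were below the medians of their groups. These shares were not matched on UMIs, and the part of depth in them was not tested. In 8 of the 10 low-MT cells under 0.05%, the rest of chromosome 11, summed without MALAT1 and NEAT1, was under 50% of the median as well, compared with 2 of the other 41. Among comparison cells of the same library it was 25 of 31 against 6 of 433. The 6 comparison cells of the DMSO library at 24 h with so little MALAT1 and NEAT1 all kept their share of chromosome 11 RNA, with 0 of 6 under 50%. In UMIs summed over all cells, by the relative log2 ratio defined below, MALAT1 was at -0.04 and not called. NEAT1 was at -0.68 and called lower. Of 19 nuclear and retained-intron RNAs tested 4 were higher and 3 lower (median 0.15), beside 11.1% and 12.5% over all genes.

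ACTB, the cytoplasmic beta-actin gene on chromosome 7, showed a similar spread. Its level over all low-MT cells, 1379 counts per 1000000 UMIs outside MT- genes (CPM), was close to the 1342 CPM of comparison cells. By cell, however, it ran from 0 to 14929 CPM with a lower quartile of 53.5 CPM in low-MT cells, against a lower quartile of 569 CPM in comparison cells. Of the 51 low-MT cells 17 had under 100 CPM, and all of those 17 had at least 1 low chromosome, which was chromosome 7 in 7 of them. Chromosome 7 was low in 2 of the other 34. Of the thinned comparison cells 33 had under 100 CPM. Chromosome 7 was low in 11 of these 33 and in 20 of the 431 others, and 4 of the 33 had no low chromosome. With DMSO at 72 h, 11 of 14 comparison cells with so little ACTB had no low chromosome. GAPDH, a glycolytic enzyme on chromosome 12, was at 3433 CPM in low-MT and 3685 CPM in comparison cells and present in all 51. Sums over the group can therefore match while its cells differ widely.

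For gene levels, UMIs were summed over the low-MT cells (2822175 outside MT- genes) and over the comparison cells (29759605). A gene's relative log2 ratio is the log2 ratio of its CPM between the groups minus the median over all 5267 genes tested, those with a mean of at least 25 CPM, and that median was close to 0 before subtraction. A gene is called higher or lower where its relative ratio was at least 1.5-fold and its interval excluded no change. Of the 5267 genes, 585 (11.1%) were called higher and 659 (12.5%) lower. Against 185 comparison cells matched to 49 low-MT cells on UMIs, 557 of 5290 (10.5%) were higher and 636 (12%) lower. The cell with the most UMIs held 10.7% of all low-MT UMIs, so the sums lean on the deep cells.

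Genes of stress responses were among those called higher. The integrated stress response is the programme by which cells slow translation and raise the transcription factor ATF4 and its targets when amino acids run short or mitochondria or the endoplasmic reticulum are disturbed. Of its 20 genes tested 12 were called higher and 0 lower, with a median relative log2 ratio of 0.62 (0.57, with 8 higher, against matched cells). DDIT3, a transcription factor linked to cell death, was at 176.5 CPM in low-MT cells and 66.8 CPM in comparison cells, a relative log2 ratio of 1.40 (1.26 to 1.55). By cell it ran from 0 to 2441 CPM with a median of 45.3 CPM in the low-MT cells, against a median of 31.9 CPM in comparison cells. Its level was 14.1 CPM in the comparison cells of DMSO at 72 h, 23.02 CPM with paclitaxel at 24 h and 21.2 CPM with DMSO at 24 h, all below the 66.8 CPM of comparison cells after 72 h of paclitaxel.

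ASNS, which makes asparagine, was at 82.2 CPM in low-MT and 30.1 CPM in comparison cells (relative log2 ratio 1.45, 1.23 to 1.66). DDIT4, an inhibitor of the growth kinase mTORC1, was at 342 and 119 CPM (1.52, 1.42 to 1.62). PPP1R15A, which restores translation after stress, had a ratio of 1.14, SLC3A2, the heavy chain of amino acid transporters, 1.05, and XBP1, a factor of the endoplasmic reticulum stress response, 0.98. The level of ATF4 RNA itself, which is controlled mainly by translation, was 785 and 591 CPM (0.41, 0.35 to 0.48) and was not called. DNAJB9, a chaperone of the endoplasmic reticulum, was at 70.2 and 23.8 CPM (1.56, 1.33 to 1.79), although only 2 of the 15 chaperones of that compartment tested were called higher and the list's median was 0.05.

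The stretches before the starts of the called stress genes are shown because ATF4, bound to a partner of the C/EBP family, is known to act through a short element with the core TGATGNAA. RefSeq promoters (GRCh38.p14, 250 bases before each start) were available for all 12 called genes and searched on both strands. The core occurred before 3 of them, and before 1 of the 6 uncalled genes of the list with a promoter. Over all 35116 RefSeq promoters 3.14% held it, and over 4108 tested genes with a promoter 2.19% did. The capitals mark the core, and each sequence runs 5′ to 3′ on the gene's own strand. A match is a description of these letters, not evidence of binding.
ASNS (chr7:97872409-97872658, minus strand, core 68 bases before the start): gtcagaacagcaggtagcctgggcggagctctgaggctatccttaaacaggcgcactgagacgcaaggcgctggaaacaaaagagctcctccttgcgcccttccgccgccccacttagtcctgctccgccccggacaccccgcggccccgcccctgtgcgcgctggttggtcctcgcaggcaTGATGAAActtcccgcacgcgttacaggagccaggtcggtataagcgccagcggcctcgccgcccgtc
ATF3 (chr1:212565157-212565406, plus strand, core 191 bases before the start): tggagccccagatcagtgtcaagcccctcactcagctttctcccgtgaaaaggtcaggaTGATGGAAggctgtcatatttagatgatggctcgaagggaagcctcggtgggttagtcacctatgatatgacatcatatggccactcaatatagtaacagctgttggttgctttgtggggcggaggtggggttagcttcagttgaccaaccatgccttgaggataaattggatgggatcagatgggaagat
HERPUD1 (chr16:56931892-56932141, plus strand, core on the opposite strand, 176 bases before the start): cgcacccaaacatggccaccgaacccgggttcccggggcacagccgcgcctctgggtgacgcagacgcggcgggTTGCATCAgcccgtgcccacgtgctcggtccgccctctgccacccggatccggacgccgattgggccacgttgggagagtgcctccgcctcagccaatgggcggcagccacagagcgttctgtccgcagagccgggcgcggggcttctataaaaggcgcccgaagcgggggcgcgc

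Beside ASNS, the 2 others with the core were ATF3, a stress-induced transcription factor with a relative log2 ratio of 0.73, and HERPUD1, a protein of endoplasmic reticulum quality control at 0.77. DDIT3 and DDIT4, with larger ratios, had no TGATGNAA in this window.

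Heat shock genes were higher as well. Of 13 tested, 9 were called higher and 0 lower, with a median of 0.68 (0.62 and 7 against matched cells). HSPA1A, an inducible cytosolic chaperone, was at 153.8 CPM in low-MT and 82.2 CPM in comparison cells (0.91, 0.76 to 1.05), and HSPA8, its constitutive relative, at 404 and 227 CPM (0.83, 0.74 to 0.92). HSPA1A and HSPA1B are near-identical neighbours, so reads may be split between them. Of 31 proteasome subunit genes, which encode the machine that degrades proteins, 8 were higher and 0 lower with a median of 0.36, and PSMC2 had the highest ratio among the named subunits at 1.11. All 7 snoRNA host genes in the table, transcripts whose introns carry small nucleolar RNAs and whose spliced RNAs accumulate when translation slows, were higher with a median of 0.80, against 3 of 7 and 0.58 in the matched comparison. SNHG12 among them was at 230 and 99.9 CPM (1.21, 1.08 to 1.33).

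Immediate early genes, which respond within minutes to stimulation or stress, were called higher in 7 of 13 and lower in 1, with a median of 0.71. The summed list was at 3493 CPM in low-MT and 2225 CPM in comparison cells. By cell the difference was smaller. Median levels were 2129 CPM under 1% MT- share and 2034 CPM from 1% to 2%, against 1737 to 1898 CPM in the intervals above 2%. MYC, a transcription factor that drives growth, was at 473 CPM in low-MT and 192.3 CPM in comparison cells (1.30, 1.21 to 1.39). KLF10, a factor induced by TGF-beta, was at 215 and 58.5 CPM (1.88, 1.74 to 2.01), and its 4 libraries of comparison cells ran from 31.3 to 58.5 CPM. JUND was the member called lower (22.7 and 50.7 CPM, -1.16). Other genes high in the list of largest ratios were ADM, which encodes the peptide adrenomedullin (149.5 and 38.9 CPM, 1.95), IFRD1 (160.2 and 49.7 CPM, 1.69), CIART, a circadian repressor (79.7 and 24.8 CPM, 1.69), ID2, an inhibitor of basic helix-loop-helix factors (288 and 96.9 CPM, 1.57), and NFKBIA, the inhibitor of NF-kB (377 and 137.6 CPM, 1.45).

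Some of the largest ratios rested on 1 cell. A single cell gave 72.1% of the low-MT UMIs of GPX2, a glutathione peroxidase with a ratio of 3.75. The same held for 77.7% of those of the cytokine feedback gene SOCS3 (2.47), 93.2% of those of the chemokine gene CCL20 (2.06) and 46.0% of those of KRT6A (1.83), a keratin of stressed epithelium. These values describe single cells and not the group. By contrast the top cell gave 12.4% of the UMIs of IFRD1 and 11.7% of those of HSPD1.

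Whether these genes were higher depended on the depth of the cells. The low-MT cells were split at their median of 33787 UMIs, and each part was compared with comparison cells of the same range. The 26 deeper low-MT cells against 381 comparison cells had 630 of 5266 genes higher (12%) and 680 lower (12.9%). The 25 shallower ones against 88 comparison cells had 919 of 5287 higher (17.4%) and 930 lower (17.6%). Among 4759 genes tested in both, 577 were higher in the deeper and 720 in the shallower cells, and 161 were higher in both (27.9% and 22.4% of them), while 68 higher in the deeper cells were lower in the shallower.

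**Figure D4:**
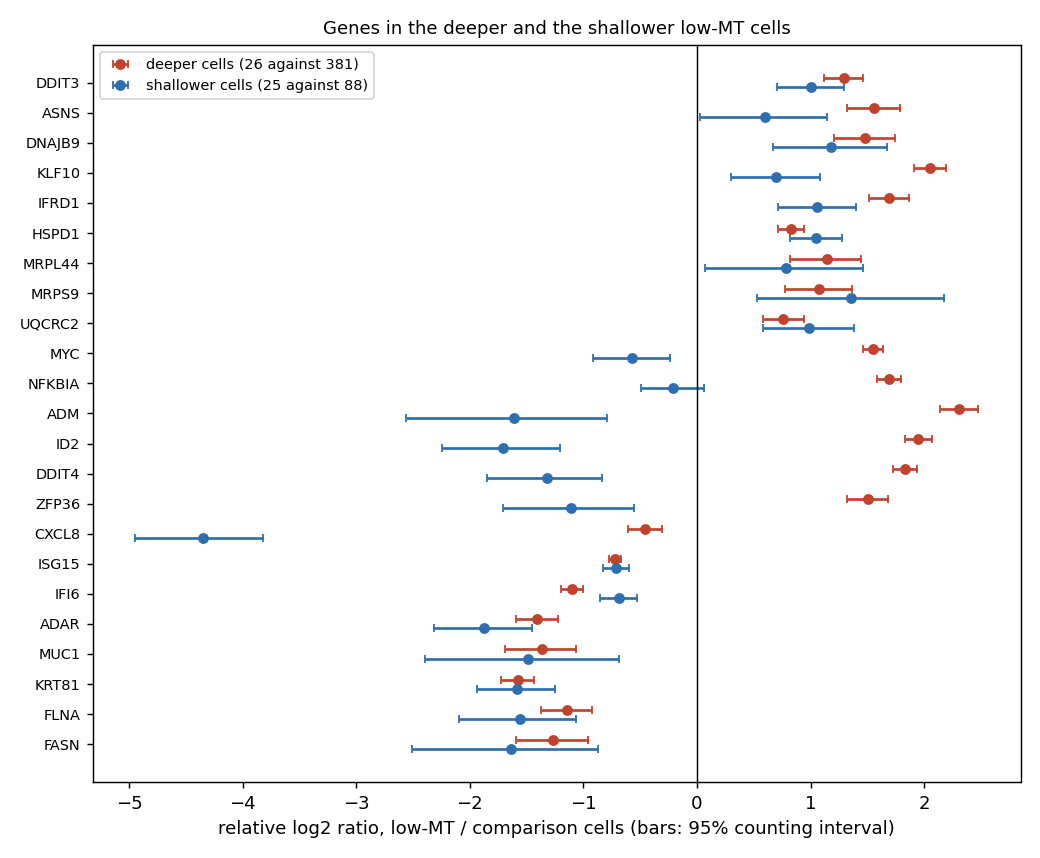
Relative log2 ratios of genes picked for display after their values were seen, in the 26 deeper low-MT cells against 381 comparison cells (red) and in the 25 shallower ones against 88 (blue). Bars are 95% counting intervals. DDIT3 to UQCRC2 lie right of 0 and ISG15 to FASN left of 0 in both, whereas MYC to ZFP36 lie right of 0 in the deeper cells and left of it in the shallower ones.

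In the deeper cells the immediate early list had 10 of 15 genes higher and a median of 0.92, and in the shallower cells 0 of 14 and a median of -0.48. ADM was at 180.2 CPM in deeper low-MT cells and 36.8 CPM in deeper comparison cells (2.31, 2.14 to 2.48), but at 23.5 and 70.3 CPM in the shallower ones (-1.61, -2.56 to -0.79). ID2 had ratios of 1.95 and -1.70, DDIT4 1.83 and -1.32, and MYC 1.55 and -0.57 in the same order. CXCL8, a neutrophil-attracting chemokine, was at 168.3 against 233 CPM in the deeper cells (-0.45, -0.61 to -0.30), which did not reach 1.5-fold, and was called lower at 50.6 against 1009 CPM in the shallower (-4.35, -4.95 to -3.82). The snoRNA host genes had 7 of 7 higher in the deeper cells (median 0.97) and 1 of 7 in the shallower (median -0.31).

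Fewer genes of the integrated stress response and heat shock lists were called higher in the shallower cells. Their medians were 0.63 (11 of 20 higher) and 0.62 (7 of 13) in the deeper cells, and 0.21 (5 of 21 higher, 4 lower) and 0.38 (5 of 13 higher, 2 lower) in the shallower. Over all genes 17.4% were higher and 17.6% lower in the shallower cells, so the stress response counts there lay near the background in both directions. DDIT3 was at 150.3 against 62.0 CPM in the deeper cells (1.29, 1.12 to 1.46) and at 284 against 138.4 CPM in the shallower (1.00, 0.71 to 1.29). KLF10 had ratios of 2.05 and 0.69, IFRD1 1.69 and 1.06, ASNS 1.56 and 0.60, and DNAJB9 1.48 and 1.18, each called higher in both parts.

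The comparison was repeated in cells with even chromosomes, which had more UMIs than the other low-MT cells. In the 14 low-MT cells and 254 comparison cells with no chromosome under 50%, 581 of 5132 genes were higher (11.3%) and 626 lower (12.2%). There the integrated stress response had 9 of 20 genes higher and 0 lower (median 0.48), heat shock 5 of 13 (0.51), immediate early 8 of 14 (0.86), and snoRNA hosts 7 of 7 (1.07). DDIT3 had a ratio of 1.48 (1.26 to 1.69), DDIT4 1.68 and ADM 2.37, whereas GADD45A, a growth arrest gene, was at 0.20 against 0.73 over all cells and ZFP36, which destabilises inflammatory messages, at 0.34 against 1.19. In the 37 low-MT and 210 comparison cells with a low chromosome, 755 of 5345 genes were higher (14.1%) and 770 lower (14.4%), and the integrated stress response median was 0.66.

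**Figure D5:**
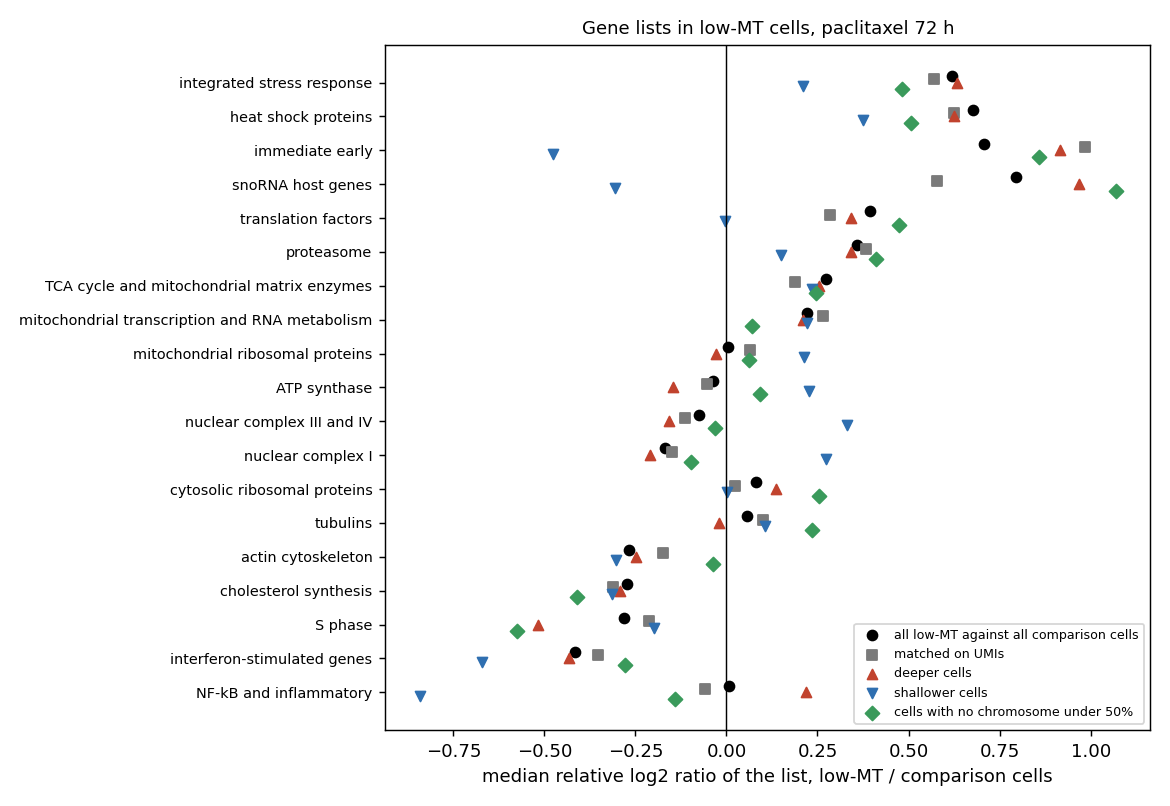
Median relative log2 ratio of each gene list, low-MT against comparison cells, for all cells (black), matched on UMIs (grey), deeper cells (red), shallower cells (blue) and cells with no chromosome under 50% (green). The integrated stress response runs from 0.21 to 0.63, while the immediate early list spans -0.48 in the shallower cells to 0.98 in the matched comparison.

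Few nuclear genes for mitochondrial parts were called. For complex I, 0 of 38 genes were higher and 3 lower, with a median of -0.17. For complexes III and IV, 1 of 20 was higher and 2 lower (median -0.08), for the ATP synthase 0 of 15 and 1 (median -0.04), and for mitochondrial ribosomal proteins 9 of 71 and 6 (median 0.00), each near the shares over all genes or below them. In the shallower cells the background was larger, with 17.4% of all genes higher and 17.6% lower. There, complex I had 10 of 37 genes higher and 3 lower (median 0.27), and mitochondrial ribosomal proteins 18 of 69 and 8 (median 0.21). UQCR11, a small subunit of complex III, was at 499 CPM in low-MT and 955 CPM in comparison cells (-0.93, -1.01 to -0.86), but its ratio in the shallower cells was -0.03. UQCRC2, a core subunit of the same complex, was at 132.5 and 75.8 CPM (0.81, 0.65 to 0.97) and was called higher in deeper and shallower cells alike. Among the mitochondrial ribosomal proteins, MRPL44 (46.1 and 21.1 CPM, 1.13) and MRPS9 (48.5 and 23.4 CPM, 1.05) had the largest ratios.

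None of the 14 genes tested that make and process mitochondrial RNA was called lower over all cells, and in the shallower cells 3 of 14 were lower and 3 higher, near the background there. TFAM, which packages mitochondrial DNA and starts its transcription, was at 112.7 CPM in low-MT cells and 90.9 CPM in comparison cells (0.31, 0.14 to 0.48), and POLRMT at 23.03 and 20.97 CPM (0.14, -0.25 to 0.51). Neither was called. TFB2M, a transcription factor of the organelle (0.67), TFB1M, a ribosomal RNA methyltransferase (0.60), and TRMT10C, part of the mitochondrial RNase P (0.84), were called higher. Against matched cells TRMT10C kept its call (0.99), while TFB2M (0.45) and TFB1M (0.51) did not pass 1.5-fold. HSPD1, the chaperonin of the mitochondrial matrix, was at 343 and 181.1 CPM (0.92, 0.82 to 1.02) and its ratio was 0.83 in the deeper and 1.05 in the shallower cells. ATF5, a factor of the mitochondrial unfolded protein response, was lower (18.8 and 36.0 CPM, -0.94). Of 21 mitophagy and autophagy genes 1 was called higher, MAP1LC3B (207 and 121.8 CPM, 0.76), and 0 lower.

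MTRNR2L1 had the lowest ratio of all named genes (43.9 and 301 CPM, -2.77, -3.04 to -2.52). It is a nuclear copy of the mitochondrial 16S ribosomal RNA gene, and reads from the organelle's own transcript may be counted on it, so its value may repeat the rule that chose the cells. No symbol starting with MT- marks it, and its UMIs stayed in the totals.

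Interferon-stimulated genes, which cells switch on against viruses and nucleic acids in the cytoplasm, were lower on balance. Of 32 tested 10 were called lower and 4 higher, with a median of -0.42 (-0.35, with 12 lower and 4 higher, against matched cells). IFI6, whose interferon-inducible product has been placed at mitochondria, stood at 427 CPM in low-MT cells and 822 CPM in comparison cells (-0.94, -1.03 to -0.86). By cell it had a median of 162 CPM in low-MT and 619 CPM in comparison cells. ISG15, a ubiquitin-like modifier, was at 1276 and 2118 CPM (-0.73, -0.78 to -0.68), with the same ratio in deeper (-0.72) and shallower cells (-0.71). The comparison cells of the other libraries were at 317 CPM with DMSO at 72 h, 625 CPM with paclitaxel at 24 h and 207 CPM with DMSO at 24 h, so ISG15 in low-MT cells was still above them. ADAR, which edits double-stranded RNA, was at 107.4 and 300.0 CPM (-1.48, -1.65 to -1.32).

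The 4 interferon genes that were higher were IFIT1, IFIT2, IFIT3 and IFIH1, and they were found in few cells. IFIT2, an antiviral protein gene, was present in 11 of 51 low-MT cells, with 1 cell giving 50.1% of its UMIs (141.4 and 38.6 CPM, 1.87). IFIT3 was present in 10, with 1 cell giving 47.7% (1.79). Along the MT- share, the median summed level of the interferon list was 4572 CPM under 1%, 3518 CPM from 1% to 2%, 4071 CPM from 2% to 3%, 5432 CPM from 3% to 5%, 6957 CPM from 5% to 8%, 7769 CPM from 8% to 12% and 8051 CPM from 12% to 20%. The integrated stress response list ran the other way, from 3275 CPM under 1% through 2520 CPM from 3% to 5% to 1906 CPM from 8% to 12% and 2068 CPM from 12% to 20%.

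Some DNA replication genes were lower. Of 18 S phase genes 8 were called lower and 0 higher (median -0.28), while in the shallower cells 4 of 20 were lower and 4 higher (median -0.20). HELLS, a chromatin remodeller of replicating cells, was at 11.3 and 44.8 CPM (-1.98), ATAD2 at 32.6 and 83.0 CPM (-1.35), and the histone gene HIST1H4C at 104.5 and 263 CPM (-1.33). The S phase median without the 5 deepest low-MT cells was 0.11. Of 32 G2 and mitosis genes 6 were higher and 7 lower (median -0.09), against matched cells 11 of 34 were higher and 7 lower (median 0.23), and in the shallower cells 8 of 26 and 2 (median 0.38). MKI67, a marker of cycling cells, was at 21.97 and 47.98 CPM (-1.13, -1.52 to -0.76), and TOP2A, the topoisomerase of mitotic chromosomes, at 42.2 and 80.3 CPM (-0.93), with 63.9% of its UMIs in 1 low-MT cell. CDC20, which triggers exit from mitosis, had a ratio of 1.09, with 38.3% of its UMIs in 1 cell.

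Genes of the cytoskeleton and of lipid synthesis were lower in part. Of 36 actin cytoskeleton genes 7 were lower and 1 higher (median -0.27). In cells with even chromosomes 4 of 35 were lower and 3 higher (median -0.04), near the background of 12.2% lower, and in cells with a low chromosome 12 of 36 were lower and 0 higher (median -0.41). FLNA, a filamin that crosslinks actin (72.6 and 167.7 CPM, -1.21), and the non-muscle myosin MYH9 (81.1 and 165.0 CPM, -1.02) were among them. Of 10 tubulin genes, whose protein is the target of paclitaxel, 2 were higher and 0 lower (median 0.06), and TUBB, the main beta-tubulin, was at 735 and 795 CPM (-0.11). Of 18 cholesterol synthesis and uptake genes 7 were lower and 1 higher (median -0.27). FASN, the fatty acid synthase, was at 36.5 and 93.6 CPM (-1.36). Of 77 cytosolic ribosomal protein genes 0 were called.

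Long transcripts were called lower more often. The longest GENCODE transcript could be looked up for 5081 of the 5267 tested genes, a property examined after the gene values were seen. Of 359 genes with a transcript over 8000 bases 93 were lower (25.9%) and 12 higher (3.34%), with a median relative log2 ratio of -0.31. Of 1178 genes from 2000 to 3000 bases 72 were lower (6.11%) and 201 higher (17.1%), with a median of 0.14. The shortest genes, up to 1000 bases, had 46 of 316 lower (14.6%) and 20 higher (6.33%). The median over 8000 bases was -0.28 against matched cells, -0.27 in the deeper, -0.40 in the shallower and -0.32 in the even cells, so it was negative in all of these. Among the named genes called lower, the longest transcripts of FLNA (8516 bases), FASN (8565), PRRC2B (11042), CENPF (10307) and MKI67 (12678) exceed that length, while those of MYH9 (7554) and ADAR (6700) do not. The part of length in their values was not tested.

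The low-MT cells expressed the epithelial and basal markers of the line, at levels that differed in part. Of the epithelial markers, KRT8 was at 775 and 676 CPM (0.20) and CDH1, the epithelial cadherin, at 43.2 and 81.4 CPM (-0.91). Of the 4 basal markers tested 3 were higher in the sums, and 1 of 4 in the cells with even chromosomes. By cell the summed basal markers had a median of 1527 CPM in low-MT and 1615 CPM in comparison cells, with highest values of 59251 and 31157 CPM, so the medians did not show the difference of the sums. KRT14, a basal keratin, was at 1933 and 721 CPM (1.43, 1.38 to 1.47) and was higher in both the deeper (1.55) and the shallower cells (0.59), with 33.9% of its UMIs in 1 cell, and KRT5 was at 206 and 117.1 CPM (0.82, and 0.43 in the even cells). Of the 5 luminal markers tested 1 was called lower and 0 higher, with a median of 0.05. The marker called lower was MUC1, a luminal mucin, at 36.9 and 101.3 CPM (-1.46), while KRT19 had 0.47 and was not called. KRT81, a hair-type keratin, was at 169.7 and 526 CPM (-1.63). Summed markers of fibroblasts were at 9.92 CPM, of endothelial cells at 13.5 CPM and of lymphocytes at 0.354 CPM in low-MT cells, and none of these markers reached the level for testing. Of the myeloid markers, CD68, a lysosomal protein gene, was tested (31.5 and 19.96 CPM, 0.66), and the summed list stood at 40.4 CPM.

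Of the apoptosis genes, 3 of 13 promoting members were higher and 1 lower (median 0.17), beside 11.1% and 12.5% over all genes. These counts are too small to set the list apart from all genes. PMAIP1, a p53 target that binds anti-apoptotic BCL2 proteins, was at 273 and 139.3 CPM (0.97, 0.86 to 1.08), and BCL2L11, another such binder, at 86.8 and 41.8 CPM (1.06). In the shallower cells PMAIP1 was at 0.39 and BCL2L11 at -0.52. Of 7 apoptosis-opposing genes 0 were called, although BCL2L1 was at 85.0 and 126.0 CPM (-0.57) and at -2.06 in the shallower cells. CDKN1A, the p53-induced cell cycle inhibitor, was at 156.3 and 113.1 CPM (0.47) and not called.

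The 11 low-MT cells of the DMSO library at 72 h shared some of these differences. They held 882021 UMIs outside MT- genes, and against 772 comparison cells of their own library 370 of 4300 genes were higher (8.6%) and 464 lower (10.8%), after subtracting a median of -0.12 over the tested genes. Among 4090 genes tested in both libraries, 63 were higher in both, which is 20.9% of the 302 higher with paclitaxel and 18.6% of the 338 higher with DMSO. Genes lower in both numbered 182, 30.4% of 598 and 41.7% of 436. As background, 338 of all 4090 genes were higher with DMSO and 436 lower. Another 11 genes higher with paclitaxel were lower with DMSO, and 17 lower with paclitaxel were higher with DMSO. These 2 libraries share no samples. The integrated stress response was higher there too, in 8 of 15 genes and with a median of 0.65, and DDIT3 was at 46.5 CPM in low-MT and 14.1 CPM in comparison cells (1.84). PMAIP1 was at 90.7 and 28.4 CPM (1.80), KRT14 at 565 and 269 CPM (1.19), ADAR at 108.8 and 198.0 CPM (-0.74) and MUC1 at 54.4 and 109.1 CPM (-0.88), each in the direction seen with paclitaxel. The interferon list as a whole was not, with 3 of 11 genes higher, 1 lower and a median of 0.26. Of 5 luminal markers 1 was lower and 0 higher with DMSO (median 0.16). Other named genes went the opposite way. KRT81 had 0.51 (0.32 to 0.69) with DMSO and -1.63 with paclitaxel, and FST 0.46 (0.16 to 0.74) and -1.82. Neither was called with DMSO. AREG, below the level for testing with DMSO, had 1.03 and -1.52. ID2 and KRT5 were called in opposite directions.

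In other groups the counts with DMSO were different or larger. There, 0 of 10 heat shock genes were called (median 0.12), 1 of 10 immediate early genes was higher and 6 lower (median -0.65), and IFI6 was at 78.2 and 78.6 CPM (0.12). S phase genes were lower in 11 of 15 (median -0.99), and G2 and mitosis genes in 17 of 26 (median -0.77), with MKI67 at -1.48. The difference between the libraries was not tested. With 6 low-MT cells each, the 24 h libraries were not compared gene by gene. Their MT- RNA was lower by a median over the genes of 13.2-fold with DMSO and 3.64-fold with paclitaxel.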

How the data were processed

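Per the submitters' processing notes, the authors made the deposited UMI counts with Cell Ranger 2.0 on GRCh38; further settings are not given in the sources used here. The deposited count tables hold whole UMI counts per gene and cell barcode, not normalized. The 4 libraries held 34997421 to 72057374 UMIs. A barcode was kept if it had 500 or more genes with a UMI and an MT- share below 20%, which left 520 of 526 after 72 h of paclitaxel.

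Sums of UMIs over cells were scaled to 1000000 UMIs outside MT- genes (CPM). Ratios carry exact (Clopper-Pearson) 95% intervals of 2 Poisson counts and shares exact binomial ones; a count of 0 allows up to 3 counts. A gene was tested at a mean of 25 CPM or more and called at 1.5-fold. Matching took, for each low-MT cell, up to 4 comparison cells within 10% of its UMIs. Thinning to 13000 UMIs left out 5 comparison cells. Chromosome shares used genes with 1 GENCODE 29 locus and 5 to under 1000 CPM, without ribosomal protein genes, MALAT1, NEAT1 and ACTB; a median of 7181 UMIs per thinned cell entered, 93 of them on chromosome 21. The contrast was tested on simulated Poisson counts in which all cells of a group shared the same expression profile. That check covers counting error only and cannot show how the calls behave when cells differ, as they do here. Python 3.11.15, numpy 2.4.6, scipy 1.17.1, pandas 2.3.3 and scanpy 1.11.5 were used.

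Named genes were the 12 highest and 12 lowest ratios at a mean of at least 50 CPM with a UMI in 25% of the cells of the higher group, the 3 most changed tested members of each list, and fixed genes such as TFAM and DDIT3; PPP1R15A, SLC3A2, XBP1, HERPUD1, IFIT1, IFIH1 and CDC20 were named after their values were seen. Some named items are not reported here. The members and lists were chosen with earlier results of these data known. The chromosome measure, transcript lengths, promoters and the cells low in MALAT1 and NEAT1 were examined after seeing the data.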

Additional observations from a re-analysis of the deposited data

Results flagged for a closer look

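Among the named genes, 2 were called in opposite directions in the low-MT cells of the DMSO and paclitaxel libraries at 72 h, and the difference was not tested. ID2 had a relative log2 ratio of -0.74 with DMSO (44.2 CPM in 11 low-MT cells and 80.4 CPM in comparison cells) and 1.57 with paclitaxel, where its ratio was 1.95 in the deeper and -1.70 in the shallower cells. KRT5 had -0.67 with DMSO (44.2 and 76.5 CPM) and 0.82 with paclitaxel. The DMSO values rest on 39 UMIs in low-MT cells for each gene.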

How the results depend on the processing

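Restricting both groups to cells below the low-MT median UMIs reversed the medians of the immediate early (-0.48), p53 target (-0.34), snoRNA host (-0.31), translation factor (-0.0032) and epithelial marker (-0.11) lists, moved the NF-kB and inflammatory median to -0.84 and gave 919 higher genes. Medians nearer to 0 over all cells also changed sign there: complex I 0.27, complexes III and IV 0.33, ATP synthase 0.23, G2 and mitosis 0.38, mitophagy and autophagy -0.30, nuclear RNAs -0.22, oxidative stress -0.16 and luminal markers -0.11. It also reversed these relative log2 ratios of genes called over all cells: SOCS3 -0.22, ADM -1.61, ID2 -1.70, DDIT4 -1.32, NFKBIA -0.21, NDUFB2 0.061, MRPS30 -0.10, TFB1M -0.20, HSPA9 -0.30, HSPA5 -0.21, MYC -0.57, ZFP36 -1.11, CCNG1 -0.34, GADD45A -1.38, BCL2L11 -0.52, CENPF 0.090, RSRP1 -0.13, SNHG12 -0.15, EPB41L4A-AS1 -0.46, EIF4A2 -0.052, TUBB2B -0.25, MIF 0.14, PDHA1 -0.015, HMOX1 -0.55, MT2A 0.19 and SREBF2 0.060. Named genes not called over all cells changed sign there too, such as CDKN1A (-0.20), KRT19 (-0.11), ATF4 (-0.014) and SDF2L1 (0.67). CCL20 had 1 UMI in the low-MT cells below the median UMIs (-6.57, -11.9 to -4.09) and 1 UMI in cells with no chromosome under 50% (-2.33, -7.65 to 0.19). The same cells with even chromosomes reversed GPX2 (-0.55). Cells with a chromosome under 50% reversed TOP2A (0.44) and the epithelial marker median (-0.088). Without the 5 deepest low-MT cells the S phase median was 0.11. A mean of at least 10 CPM gave 1117 higher and 1254 lower genes, and 100 CPM gave 162 and 141, with more and fewer genes tested. A limit of 3% gave 10, 14 and 26 low-MT cells with DMSO at 24 h, paclitaxel at 24 h and DMSO at 72 h; 1.5% gave 0 with paclitaxel at 24 h and 6 with DMSO at 72 h, and 1% gave 0 and 4 there and 25 with paclitaxel at 72 h. The cause of the reversals was not tested. DDIT3, ASNS, KLF10, IFRD1, HSPD1, ADAR, KRT81, MUC1 and FASN kept their calls in all 15 settings where a call could be made. These settings are not independent, since they reuse the same low-MT cells in whole or in part. Leaving out doublet calls removed no cell, and the median left unsubtracted was -0.0019, so these settings could hardly change a call. Settings with even or low chromosomes and without cells low in MALAT1 and NEAT1 were added after seeing the data. Cell numbers, 25 and 14 low-MT cells in the smallest subsets, limit the counts. No paired analysis was possible because each group is 1 library.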
